A study of Saccharomyces cerevisiae with 8 samples.

Results

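The very long coding sequences of budding yeast, Saccharomyces cerevisiae, were 46 of the 6016 protein-coding rows of the deposited table. A row was taken when its coding length was 5400 bases or more, a property of the annotation and not of the libraries. Of 58 rows that met the length, 2 transposon gag-pol rows, 3 copies of the subtelomeric helicase YRF1, and the rows GCN1, GLT1, URA2, SLH1, UTP20, TOR1 and TOR2 were left out by name. The 46 rows ran from HKR1 at 5409 bases to REA1 at 14733 bases, and none overlapped another row. Just inside the length limit lay HKR1, DUR12 (5508 bases) and MOT1 (5604 bases), and just outside it lay USO1 (5373 bases), FKS3 (5358 bases) and RIM15 (5313 bases).

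RNA-seq measures the amount of each mRNA, and ribosome profiling (RIBO-seq) sequences the short mRNA stretches that ribosomes protect from nuclease, called footprints. Footprints divided by mRNA of the same gene is the translational efficiency, a measure of how many ribosomes sit on each length of message. Ribosomes start near the capped end of the message and read codon by codon to the stop codon, so a ribosome that has started on a long coding sequence stays on it for longer, while footprints per length depend on how often ribosomes start and how fast they move. Very long yeast proteins include multidomain enzymes of fatty acid synthesis, giant kinases of the ATM and ATR family, motors, scaffolds and lipid transfer proteins that bridge membranes.

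All cells were haploid BY4741, a laboratory strain, grown to mid-log phase in synthetic dextrose medium without leucine and uracil. All carried an mCherry reporter interrupted by a UAG stop codon, and a cassette for guide RNAs that direct pseudouridylation, in which an enzyme turns a chosen uridine into pseudouridine. In targeted cells the guide RNAs addressed that stop codon and the anticodon of a lysine tRNA. Control cells carried control guide RNAs. Each of the 4 groups (targeted RNA, control RNA, targeted footprints, control footprints) held 2 libraries. Whether the replicates are separate transformants or separate cultures is not stated in the labels. The p-values thus measure only the spread between these libraries, which may be technical. Below, a culture means the RNA and footprint libraries of targeted or control cells that share a replicate number. Cultures in this sense need not have been grown separately.

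Summed reads were 33947846 and 21073013 in targeted RNA libraries, against 61908589 and 33911841 in control RNA libraries. They were 15253540 and 14163627 in targeted footprint libraries, against 11849950 and 8080039 in control footprint libraries. Transposon rows took 69.8 to 72.9% of summed RNA reads and 20.6 to 23.2% of summed footprint reads, and they are left out of the shares below. The 5 markers of MATa haploid cells (MFA1, MFA2, STE2, BAR1 and AGA2) summed to 1418 and 1240.0 RPKM in targeted RNA libraries, against 1562 and 1563 RPKM in control RNA libraries, with none at 0. The 4 markers of alpha cells summed to 5.62 and 6.15 RPKM in targeted libraries, where 1 of them was at 0 in each, against 5.78 and 6.85 RPKM in control libraries. RPKM is reads per kilobase of coding length scaled to the reads of the library, so fewer cells with a transcript and less of it per cell cannot be told apart. Each of the 46 rows had at least 656 RNA reads and at least 101 footprint reads in every library, and all 46 passed the filter on low counts in each test. Targeted replicate 2 stood apart from the other libraries by coding length in both assays, and the members' median changes between targeted and control cells are given with and without it.

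Very long coding sequences had a median mRNA level per length above that of all rows, and a median footprint level below it, with many members on the other side. Their median RNA level was 13.7 and 15.4 RPKM in targeted libraries, where the median of all rows was 9.91 and 9.49 RPKM. In control libraries it was 13.5 and 14.8 RPKM, where the median of all rows was 9.91 and 10.7 RPKM. Footprints ran the other way. The members' median was 11.7 and 12.4 RPKM in targeted libraries, where the median of all rows was 17.6 and 17.2 RPKM, and 11.9 and 12.4 RPKM in control libraries, where it was 17.7 and 18.6 RPKM. The members held 3.83% of the coding length of the table, 2.77 and 3.04% of RNA reads in targeted libraries and 2.84 and 2.74% in control libraries. They held 1.38 and 1.47% of footprint reads in targeted libraries, against 1.46 and 1.42% in control libraries.

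Levels among the members spanned a wide range, and the order was led by lipid and cell wall enzymes. FAS1, the beta subunit of fatty acid synthase (chromosome 11, bases 100671 to 106826 on the plus strand, build R64), had the highest RNA level, 181 and 184 RPKM in targeted cells, against 189.7 and 205 RPKM in control cells. Its footprints were 343 and 352 RPKM in targeted cells, against 377 and 369 RPKM in control cells. FAS2, the alpha subunit of the same enzyme (chromosome 16, bases 108652 to 114315 on the plus strand), had RNA of 151 and 151 RPKM in targeted cells, against 164 and 176 RPKM in control cells. The next were FKS1, a catalytic subunit of the glucan synthase that builds the cell wall, and ACC1, the acetyl-CoA carboxylase that supplies fatty acid synthesis. FKS1 RNA was 116 and 130.3 RPKM in targeted cells, against 121 and 123 RPKM in control cells, and ACC1 RNA was 110.2 and 115 RPKM in targeted cells, against 116 and 122 RPKM in control cells. The RNA levels of FKS1 and ACC1 did not overlap in targeted cells but did in control cells. SEC7, an exchange factor for Arf GTPases at the Golgi, followed far below, with RNA of 37.4 and 37.2 RPKM in targeted cells, against 38.3 and 39.9 RPKM in control cells.

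The lowest 5 by RNA in control cells were TEL1, MEC1, UBR2, BPH1 and CCH1. TEL1, the ATM-family kinase of telomeres and DNA breaks (chromosome 2, bases 51019 to 59382 on the minus strand), had RNA of 4.37 and 5.06 RPKM in targeted cells, against 3.99 and 4.41 RPKM in control cells. MEC1, the ATR-family checkpoint kinase, had RNA of 4.23 and 4.7 RPKM in targeted cells, against 4.34 and 4.5 RPKM in control cells. The 2 kinases overlapped in both kinds of cells. UBR2, a ubiquitin ligase, BPH1, a BEACH domain protein, and CCH1, a calcium channel of the plasma membrane, had RNA of 4.25 to 5.79 RPKM in targeted cells, against 4.45 to 5.61 RPKM in control cells. Across the 46 members RNA and footprint RPKM ranked alike, with Spearman's rho of 0.890 in targeted cells and 0.902 in control cells, a description over genes that share libraries.

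**Figure D1:**
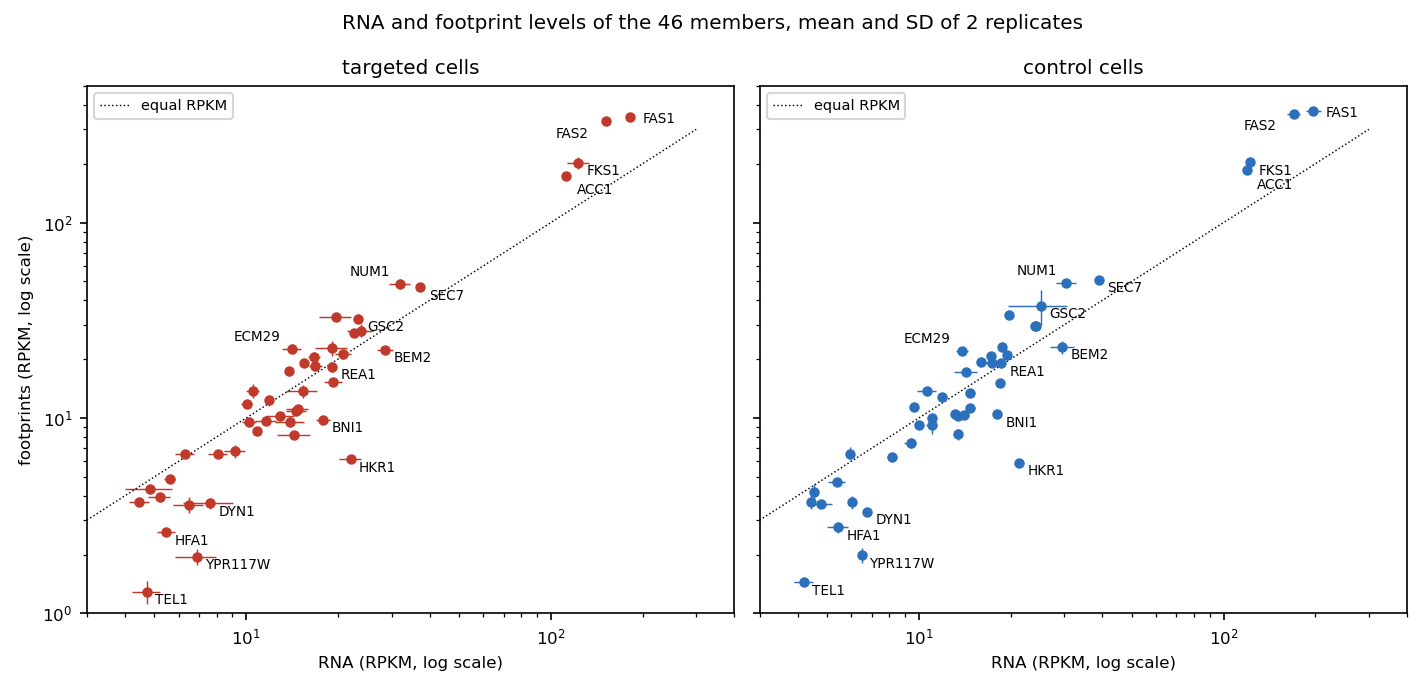
Footprint RPKM (vertical, log scale) against RNA RPKM (horizontal, log scale) of the 46 very long coding sequences, with targeted cells on the left and control cells on the right. Points are means of 2 replicates with SD bars, and the dotted line marks equal RPKM. That line is not the typical row, whose ratio of footprints to RNA was 1.86 to 1.96 (medians of all rows). FAS1, FAS2, FKS1 and ACC1 stand apart at the top, and HKR1, YPR117W and TEL1 lie farthest below the line.

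The footprint-to-RNA ratio of very long coding sequences was lower than that of the typical row in every culture. Their median ratio of footprint RPKM to RNA RPKM was 0.971 and 0.892 in targeted cells, against 0.983 and 0.895 in control cells. The median of all rows was 1.93 and 1.96 in targeted cells, against 1.95 and 1.86 in control cells. In the 2 targeted cultures 45 and 45 of the 46 members lay below the median of all rows, and in the 2 control cultures 44 and 45 did. When footprints were tested against RNA within each kind of cell with edgeR (TMM scaling, Benjamini-Hochberg adjusted p under 0.05), 43 of 46 members were lower in targeted cells and 44 of 46 in control cells, and none was higher. Of all rows tested, 36.3% were lower in targeted cells and 38.7% in control cells, and 34.8 and 36.5% were higher. Among rows whose RNA reads fell in the members' range, 33.9% were lower in targeted cells (32.2% without the members) and 36.3% in control cells (34.7% without the members). The members' median log2 ratio was -1.12 in targeted cells and -1.08 in control cells, where the medians of all rows tested were -0.01 and -0.02. The 2 tests share no library, and they do not pair the libraries of a culture. With the culture as a block, 44 members were lower and FAS2 was higher in each kind of cell.

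These calls are relative to the TMM scaling, which centres the bulk of the rows near 0. With library size as the only scaling, the median log2 ratio of all rows moved to 1.02 in targeted cells and 0.95 in control cells. The split of the members was then 20 lower and 17 higher in targeted cells, and 19 lower and 17 higher in control cells. The distance between the members' median and the median of all rows was nearly the same under that scaling, -1.11 in targeted cells and -1.06 in control cells.

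The members continued a gradation over coding length. In coding sequences under 600 bases (1236 rows) the median ratio was 2.83 and 2.99 in targeted cells, against 2.83 and 2.83 in control cells. From 1200 to under 2400 bases (2054 rows) it was 1.75 and 1.78 in targeted cells, against 1.78 and 1.70 in control cells. From 3600 to under 5400 bases (209 rows) it was 1.10 and 1.08 in targeted cells, against 1.13 and 1.10 in control cells. Each class of longer rows, with the members last, had a lower median ratio than the class before it in all 4 cultures. The share of rows called lower was 13.6% under 600 bases, 41.8% from 1200 to under 2400 bases, 88.5% from 3600 to under 5400 bases and 93.5% of the members in targeted cells. In control cells these shares were 15.7, 44.3, 93.8 and 95.7%. Over all tested rows without transposon rows, Spearman's rho of length and log2 ratio was -0.534 in targeted cells (5527 rows) and -0.515 in control cells (5569 rows). Within the 46 members it was -0.38 in targeted cells and -0.33 in control cells. The annotated length is a divisor of both RPKM values and cancels in the ratio, and the rows share libraries and depth.

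The gradation was also present among rows of like mRNA level. Of the members, 22 had a mean control RNA level between 9.44 and 19.6 RPKM, the quartiles of the 46, and all 22 were called lower in targeted cells and in control cells. Among the other rows at that level, the share called lower in targeted cells was 10.9% under 600 bases (221 rows), 36.1% from 1200 to under 2400 bases (534 rows) and 90.3% from 3600 to under 5400 bases (72 rows). In control cells these shares were 12.7, 41.4 and 95.8%. Within the members themselves the ratio ranked with RNA level, with rho of 0.559 in targeted cells and 0.593 in control cells.

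**Figure D2:**
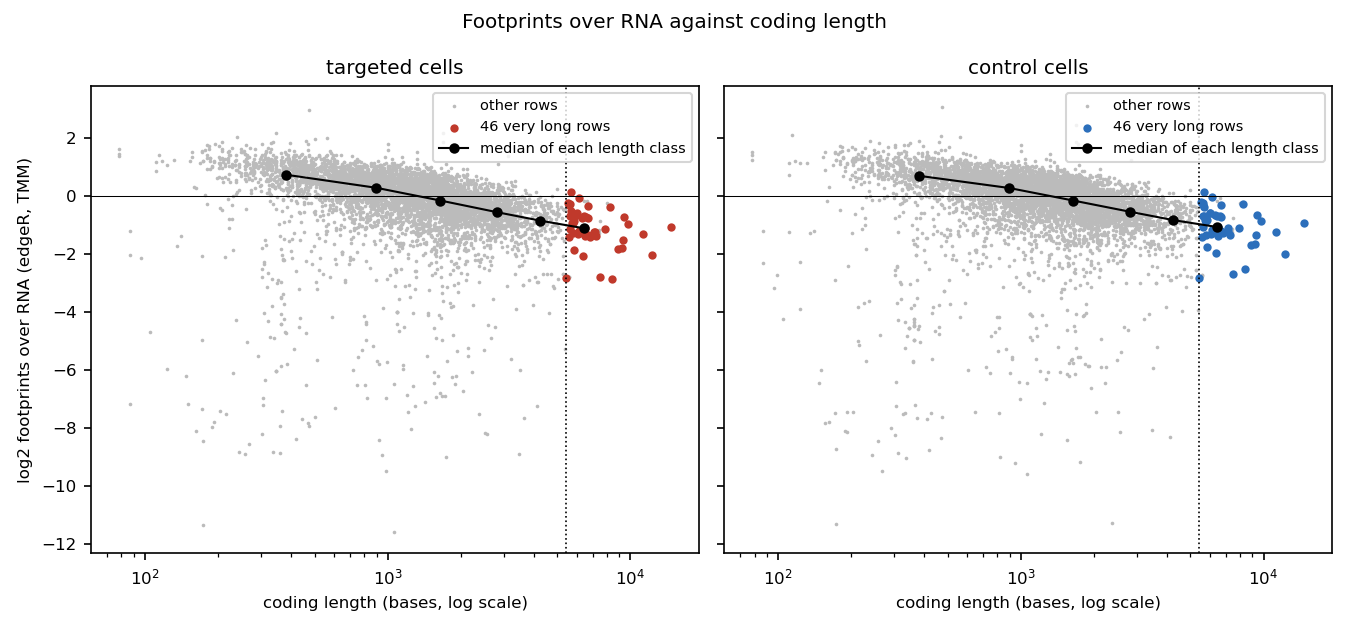
Fitted log2 footprints over RNA (vertical) against coding length in bases (horizontal, log scale), with targeted cells on the left and control cells on the right. Grey points are other rows without transposon rows, coloured points the 46 very long coding sequences, black points the medians of the length classes, and the dotted line marks 5400 bases. The class medians fall with length in both panels, and the members' medians are -1.12 in targeted cells and -1.08 in control cells.

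Among the members, the exceptions were enzymes of fatty acid synthesis and urea breakdown. FAS2 had a ratio of 2.19 and 2.19 in targeted cells, against 2.22 and 2.03 in control cells, and FAS1 of 1.9 and 1.91 in targeted cells, against 1.99 and 1.8 in control cells. Both overlapped between the kinds of cells, and neither was called lower: the log2 ratio of FAS2 was 0.13 ± 0.08 (SE) in targeted cells and 0.11 ± 0.06 in control cells, with edgeR adjusted p of 0.171 and 0.109. With the culture as a block, FAS2 was called higher in both, with adjusted p of 0.0204 in targeted cells and 0.000645 in control cells. DUR12, the urea amidolyase that releases nitrogen from urea (chromosome 2, bases 636703 to 642210 on the minus strand), had a ratio of 1.77 and 1.57 in targeted cells, against 1.68 and 1.75 in control cells. It was called lower in control cells (-0.20 ± 0.05, edgeR adjusted p 0.00522) but not in targeted cells (-0.26 ± 0.11, edgeR adjusted p 0.0536), where the fit blocked by culture called it (edgeR adjusted p 0.000434). FKS1 and NUM1, a cortical anchor for dynein and mitochondria, completed the 5 highest in control cells. In targeted cells ECM29 and ACC1 ranked above NUM1. FKS1 had a ratio of 1.66 and 1.63 in targeted cells, against 1.69 and 1.65 in control cells, and NUM1 of 1.54 and 1.5 in targeted cells, against 1.66 and 1.56 in control cells. These calls were near the edge of the test: in control cells the calls of DUR12, FKS1, NUM1 and ECM29, an adaptor of the proteasome, were lost without either control culture, in fits that took their spread from both kinds of cells (edgeR adjusted p 0.0577 to 0.468), and that of ACC1 without control replicate 2 (edgeR adjusted p 0.0571). With no culture left out, such a pooled fit lost the call of DUR12 alone (edgeR adjusted p 0.0648). FAS1 was called lower in control cells when rows under 10 CPM (counts scaled to library size) were dropped (edgeR adjusted p 0.0241).

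The lowest ratios in control cells belonged to HKR1, YPR117W, TEL1, DYN1 and HFA1. HKR1, a mucin-like sensor of the cell surface that feeds the osmotic stress pathway (chromosome 4, bases 1306267 to 1311675 on the plus strand), had RNA of 20.7 and 23.4 RPKM in targeted cells, against 21.9 and 20.8 RPKM in control cells. Its footprints were 6.11 and 6.19 RPKM in targeted cells, against 5.95 and 5.83 RPKM in control cells. Its ratio was 0.295 and 0.265 in targeted cells, against 0.272 and 0.28 in control cells, the lowest of the members in control cells although it was the shortest of them. The log2 ratio of HKR1 was -2.84 ± 0.10 (SE) in targeted cells and -2.83 ± 0.08 in control cells, with edgeR adjusted p of 4.14e-07 and 2.02e-08. YPR117W, which the table calls uncharacterized (chromosome 16, bases 760025 to 767494 on the plus strand), had a ratio of 0.297 and 0.272 in targeted cells, against 0.29 and 0.32 in control cells. TEL1 had a ratio of 0.268 and 0.28 in targeted cells, against 0.35 and 0.338 in control cells. The highest value among these 3 genes was 0.350, for TEL1 in control replicate 1. Of the 3, TEL1 had both targeted cultures below both control cultures, and the others overlapped. Such a separation is common with 2 replicates: it held for 16.1% of all rows in RNA and 15.2% in footprints. The share was not computed for the ratio, where the unblocked edgeR test called no row changed.

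DYN1, the heavy chain of cytoplasmic dynein, which pulls the nucleus into the bud (chromosome 11, bases 535647 to 547925 on the minus strand), had a ratio of 0.528 and 0.444 in targeted cells, against 0.476 and 0.50 in control cells. HFA1, the mitochondrial acetyl-CoA carboxylase, had a ratio of 0.499 and 0.454 in targeted cells, against 0.512 and 0.503 in control cells. DYN1 overlapped between the kinds of cells. HFA1 had both targeted cultures slightly below both control cultures, which was not called as a change. How often all rows separate so in the ratio was not computed.

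**Figure D3:**
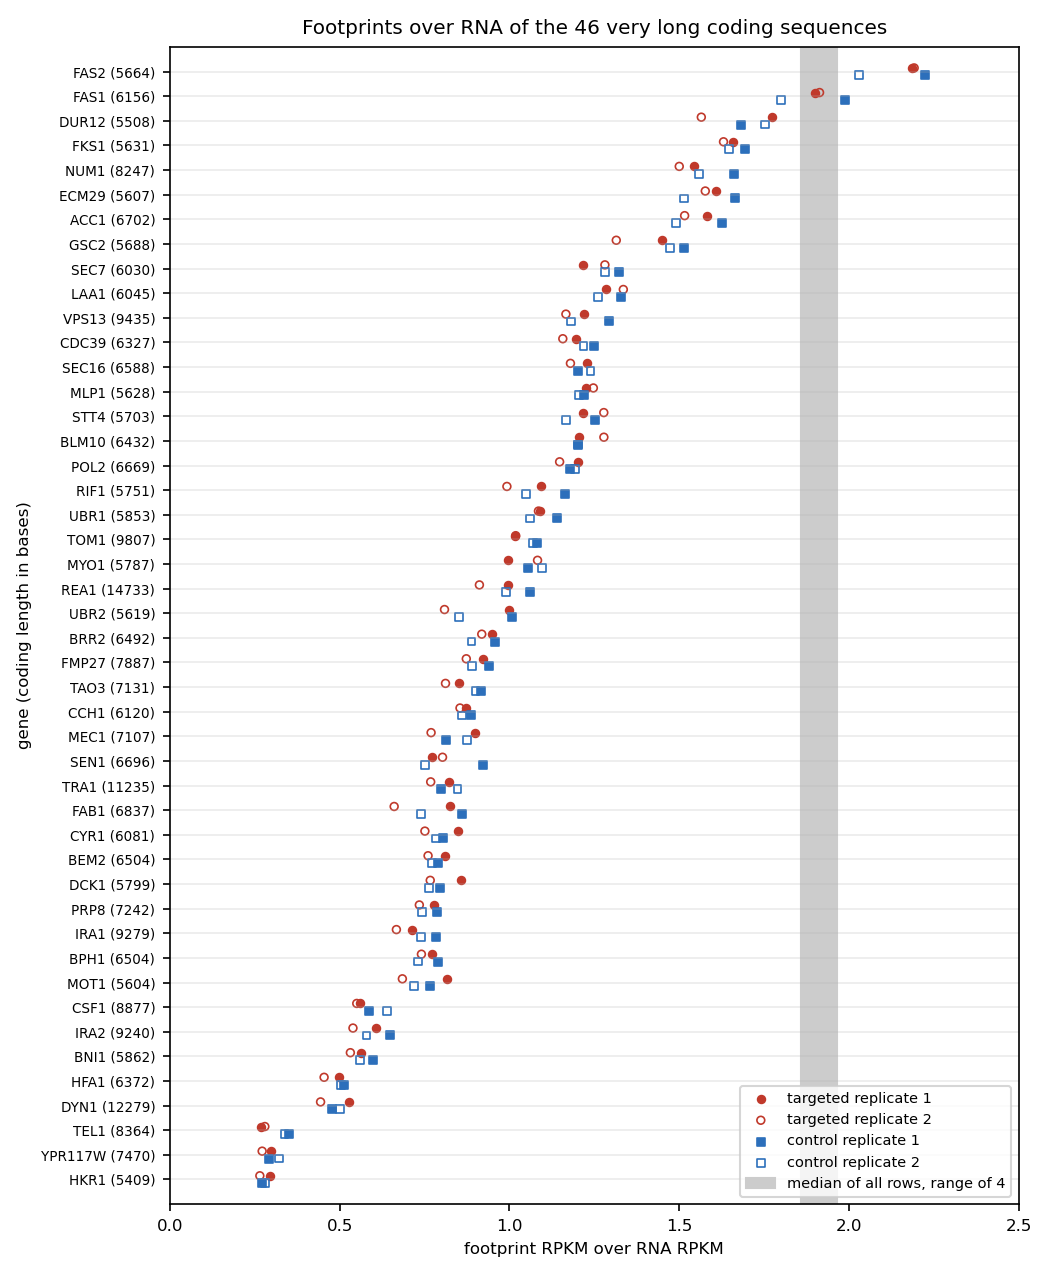
Ratio of footprint RPKM to RNA RPKM (horizontal) of each very long coding sequence (vertical, ordered by the mean ratio of the 2 control cultures, coding length in brackets). Red points are the 2 targeted cultures, blue squares the 2 control cultures, and the grey band spans the medians of all rows in the 4 cultures. FAS2 lies above the band, FAS1 spans it, and the others lie below it.

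Of the 5 longest coding sequences, REA1, also known as midasin, is the ATPase that strips assembly factors from the large ribosomal subunit (chromosome 12, bases 349006 to 363738 on the minus strand). Its RNA was 19.1 and 19.3 RPKM in targeted cells, against 18.7 and 18.6 RPKM in control cells, and its footprints were 19. and 17.6 RPKM in targeted cells, against 19.8 and 18.4 RPKM in control cells. Its ratio was 0.995 and 0.912 in targeted cells, against 1.06 and 0.989 in control cells, near the middle of the members. TRA1, the subunit of histone acetyltransferase complexes that activators contact, had a ratio of 0.821 and 0.768 in targeted cells, against 0.797 and 0.847 in control cells. TOM1, a HECT-type ubiquitin ligase, had a ratio of 1.02 and 1.02 in targeted cells, against 1.08 and 1.07 in control cells, and VPS13, a lipid transfer protein of membrane contact sites, of 1.22 and 1.17 in targeted cells, against 1.29 and 1.18 in control cells. TOM1 had both targeted cultures below both control cultures, again not called as a change, and the other 4 overlapped. The order of these 5 by ratio thus did not follow their order by length, with DYN1, the longest after REA1, lowest and VPS13, the shortest of them, highest.

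By role, every member was called lower except in the groups that hold the exceptions. Of all 46 members, 93.5% were lower in targeted cells and 95.7% in control cells. From 3600 to under 5400 bases, 88.5 and 93.8% of rows were. A group in which every member was lower is thus not set apart by its role. Of 7 lipid and cell wall genes, 5 were lower in targeted cells and 5 in control cells, and the group's median ratio was 1.55 in targeted cells and 1.56 in control cells. Of 5 genes of Ras, cAMP and phosphoinositide signalling and metabolism, 4 were lower in targeted cells and 5 in control cells, with a median ratio of 0.799 in targeted cells and 0.794 in control cells. STT4, a phosphatidylinositol 4-kinase of the plasma membrane, had a ratio of 1.22 and 1.28 in targeted cells, against 1.25 and 1.17 in control cells. All 6 genes of DNA damage, replication and chromatin were lower in both, with a median ratio of 0.814 in targeted cells and 0.833 in control cells. POL2, the catalytic subunit of DNA polymerase epsilon, was the highest of these, 1.2 and 1.15 in targeted cells, against 1.18 and 1.19 in control cells, and MOT1, which removes the TATA-binding protein from DNA, had 0.815 and 0.685 in targeted cells, against 0.766 and 0.718 in control cells.

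All 6 genes of RNA processing and ribosome assembly were lower, with a median ratio of 0.943 in targeted cells and 0.974 in control cells. Among them were CDC39, the scaffold of the Ccr4-Not deadenylase, with 1.2 and 1.16 in targeted cells, against 1.25 and 1.22 in control cells, and PRP8, the core protein of the spliceosome and the lowest of the 6, with 0.779 and 0.735 in targeted cells, against 0.787 and 0.742 in control cells. The 4 genes of the cytoskeleton and motors (DYN1, NUM1, TAO3 and MYO1) were lower, with a median of 0.935 in targeted cells and 0.992 in control cells. MYO1, the type II myosin of the division ring, had a ratio of 0.996 and 1.08 in targeted cells, against 1.05 and 1.1 in control cells. Lower too were the 7 of vesicle traffic and lipid transfer, with a median of 0.897 in targeted cells and 0.915 in control cells. TOM1, UBR1 and BLM10, listed together for ubiquitin and the proteasome, had a median of 1.09 in targeted cells and 1.10 in control cells, and the 8 others 0.837 in targeted cells and 0.837 in control cells, and each of them was lower. The 8 others hold UBR2, with a ratio of 0.999 and 0.809 in targeted cells, against 1.01 and 0.852 in control cells, and ECM29, with 1.61 and 1.58 in targeted cells, against 1.66 and 1.51 in control cells, which also act in that system. UBR1, the ligase that recognises destabilising amino-terminal residues, had a ratio of 1.09 and 1.09 in targeted cells, against 1.14 and 1.06 in control cells. Among the 8 others, BEM2 had the highest RNA, 27.3 and 29.8 RPKM in targeted cells, against 27.7 and 31.5 RPKM in control cells, and a ratio of 0.81 and 0.76 in targeted cells, against 0.79 and 0.773 in control cells. SEC16, a scaffold of COPII vesicle exit sites, had a ratio of 1.23 and 1.18 in targeted cells, against 1.2 and 1.24 in control cells.

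Paralog pairs of near-equal length allowed a comparison at matched length. The fold of ACC1 over HFA1 in RNA was 21.2 and 20. in targeted cells, against 22.7 and 21.3 in control cells. In footprints it was 67.2 and 66.9 in targeted cells, against 72.2 and 62.9 in control cells. The gap between the cytosolic and the mitochondrial carboxylase was wider in footprints than in RNA in every culture. For FKS1 over GSC2, the stress-induced glucan synthase subunit, the RNA fold was 5.03 and 5.5 in targeted cells, against 5.69 and 4.22 in control cells. The footprint fold was 5.75 and 6.82 in targeted cells, against 6.36 and 4.72 in control cells, again wider in every culture. IRA1 and IRA2, the inhibitors that switch off Ras, had like RNA levels, with a fold of IRA1 over IRA2 of 0.976 and 0.96 in targeted cells, against 0.982 and 1.01 in control cells. The footprint fold was 1.15 and 1.19 in targeted cells, against 1.19 and 1.29 in control cells, above 1 in all 4 cultures. The sources used here do not say how reads shared by paralogs were counted, so these values are uncertain where sequences match.

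In some complexes the very long subunit had more mRNA per length than a shorter partner and a smaller excess of footprints per length. The pairs described here were singled out from the listed complexes after their values were seen. The fold of REA1 over RIX1, its partner in subunit assembly, was 2.59 and 3.07 in targeted cells, against 2.65 and 2.46 in control cells in RNA per length. In footprints it was 1.24 and 1.28 in targeted cells, against 1.34 and 1.27 in control cells. The fold of PRP8 over SNU114, the GTPase beside it in the U5 snRNP, was 1.9 and 2.03 in targeted cells, against 2.01 and 1.86 in control cells in RNA. In footprints it was 0.884 and 0.974 in targeted cells, against 0.995 and 0.876 in control cells. In both pairs the fold was smaller in footprints than in RNA in all 4 cultures.

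The RNA fold of DYN1 over PAC11, the dynein intermediate chain, was 1.97 and 1.86 in targeted cells, against 1.52 and 1.54 in control cells. The footprint fold was 1.07 and 0.957 in targeted cells, against 1.0 and 0.962 in control cells. For POL2 over DPB2, another subunit of DNA polymerase epsilon, the RNA fold was 1.37 and 1.64 in targeted cells, against 1.33 and 1.25 in control cells. The footprint fold of POL2 over DPB2 was 1.2 and 1.21 in targeted cells, against 1.09 and 1.24 in control cells, smaller than the RNA fold in each culture but by little in control replicate 2. The RNA fold of MEC1 over its binding partner LCD1 was 1.03 and 1.0 in targeted cells, against 0.928 and 0.879 in control cells, and the footprint fold was 0.911 and 0.769 in targeted cells, against 0.804 and 0.796 in control cells. FAS1 and FAS2, both very long and subunits of 1 enzyme, had an RNA fold of 1.19 and 1.22 in targeted cells, against 1.15 and 1.16 in control cells. Their footprint fold was 1.04 and 1.06 in targeted cells, against 1.03 and 1.03 in control cells, closer to 1 than that of RNA in every culture.

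Across 9 listed complexes, the 63 partners that are not very long were called at shares near those of all rows. In targeted cells 23 were lower (36.5%) and 24 higher (38.1%) in footprints over RNA, where 36.3% of all rows were lower and 34.8% higher. In control cells 20 were lower (31.7%) and 25 higher (39.7%), where 38.7% of all rows were lower and 36.5% higher. Their median ratio was 2.13 in targeted cells and 2.03 in control cells. In the U5 snRNP list, PRP8 and BRR2 were lower and 8 of 9 partners were higher in both kinds of cells. Those 8 partners were each under 600 bases long. In that length class 68.4% of all rows were higher in targeted cells and 66.7% in control cells. In the dynein and dynactin list, 9 of 11 partners were lower in targeted cells and 7 of 11 in control cells, beside DYN1 and NUM1. Every partner had a coding length under 5400 bases. Not every partner lay above the very long subunit: NIP100, a dynactin subunit, had a ratio of 0.281 and 0.397 in targeted cells, against 0.456 and 0.356 in control cells, on average below DYN1 in both kinds of cells, and CAF130, a subunit of Ccr4-Not, had 1.03 and 0.97 in targeted cells, against 1.1 and 0.903 in control cells, below CDC39. Over all pairs of a member and a listed partner, the partner's mean ratio was the higher in 115 of 132 pairs in targeted cells and in 114 of 132 in control cells. Among all rows, 16.7 and 14.8% lay below the members' median ratio in targeted cells, against 17.2 and 15.3% in control cells. Most rows of any kind thus lay above a typical member, and these counts do not set the partners apart.

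**Figure D4:**
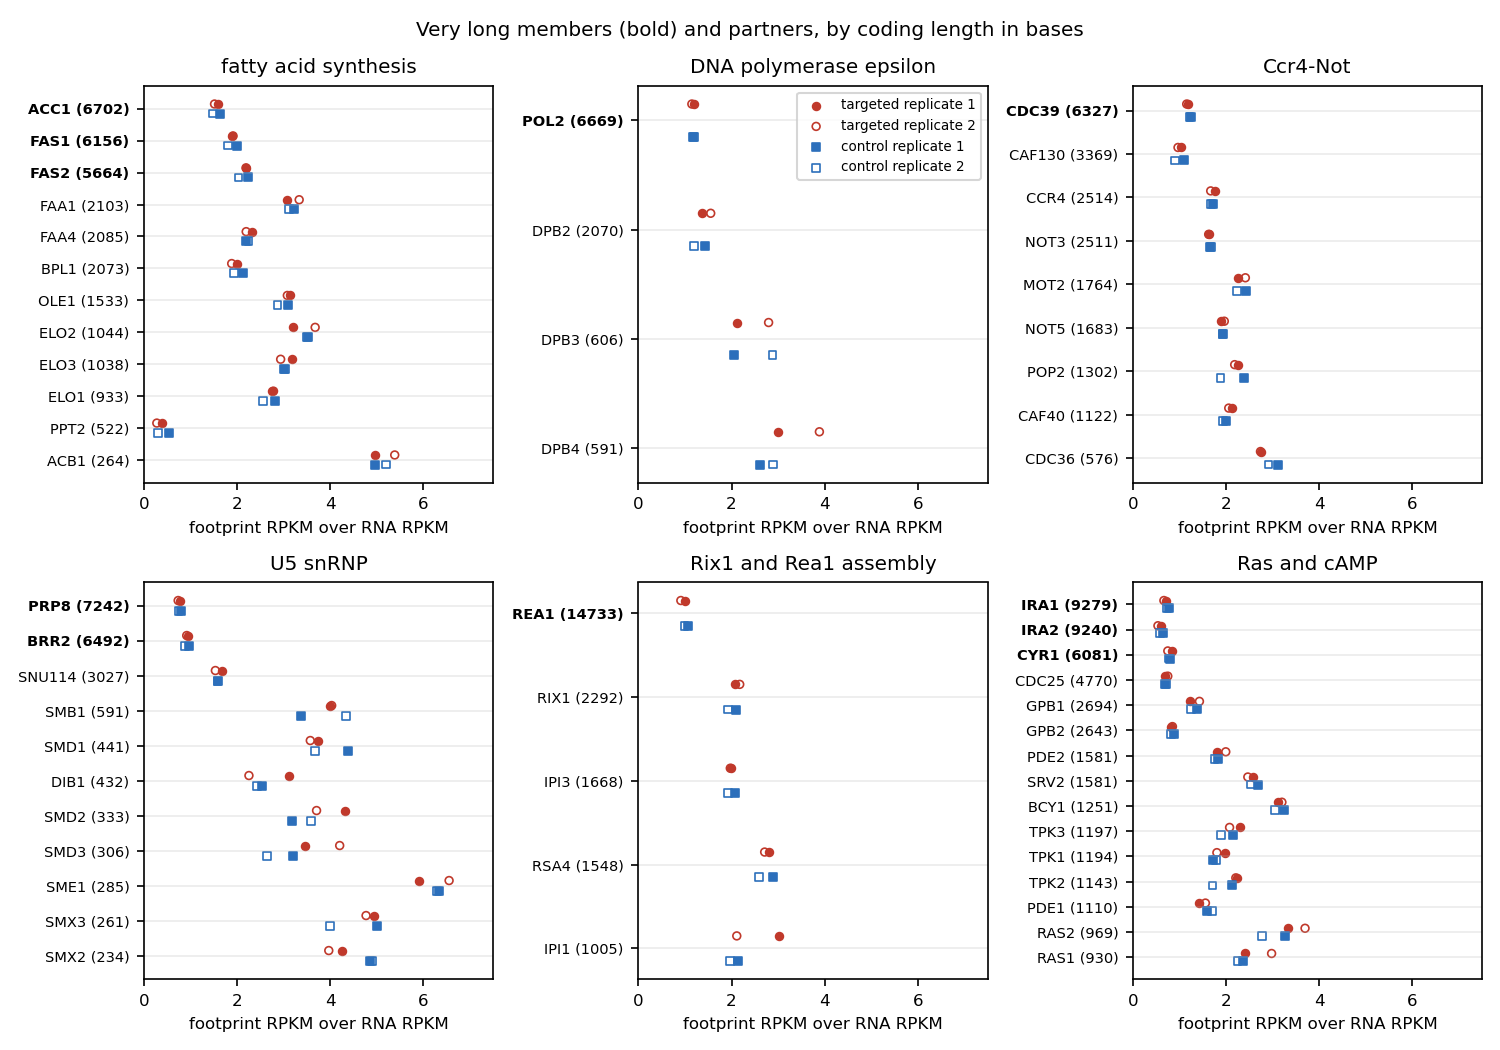
Ratio of footprint RPKM to RNA RPKM (horizontal) of very long members (bold) and listed partners (vertical, with coding length in bases) in 6 complexes or pathways. Red points are the 2 targeted cultures and blue squares the 2 control cultures. In the U5 snRNP panel PRP8 and BRR2 lie below 1 and every partner above 1. A ratio of 1 is not that of the typical row, as the medians of all rows were 1.86 to 1.96. SNU114, at 1.53 to 1.67, lies below those medians.

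Rows left out by name, and rows just under the length limit, also differed widely in ratio. GCN1, which activates the kinase Gcn2 at stalled ribosomes, had a ratio of 1.72 and 1.65 in targeted cells, against 1.73 and 1.6 in control cells, and URA2, the first enzyme of pyrimidine synthesis, of 1.79 and 1.7 in targeted cells, against 1.96 and 1.77 in control cells. TOR1, the kinase of growth control, had 0.859 and 0.80 in targeted cells, against 0.861 and 0.794 in control cells. Just below the length limit, USO1, a tether for vesicles at the Golgi, had 1.46 and 1.42 in targeted cells, against 1.39 and 1.35 in control cells, and FKS3 had 0.0504 and 0.0483 in targeted cells, against 0.12 and 0.14 in control cells on 4 to 7 footprint reads in a library. Keeping the 7 named rows gave a median log2 ratio of -0.92 relative to all rows in control cells, against -1.05 without them. With them kept, 48 of 53 rows were called lower in targeted cells and 50 of 53 in control cells. URA2 was called lower in neither kind of cell, and GLT1 in control cells only.

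Between targeted and control cells, no very long coding sequence was called changed in RNA, in footprints or in their ratio by the unblocked tests. The counts by edgeR (adjusted p under 0.05) were 0 of 46 in each, where 0.368% of all rows were higher and 0% lower in RNA, 0.586% higher and 0% lower in footprints, and 0% changed in the ratio. At an unadjusted p under 0.05 there were 3 members in RNA, 1 in footprints and 0 in the ratio, against 4.46, 4.54 and 1.85% of all rows. With the culture as a block, the ratio test put 3 members and 291 of 5665 rows at such a p. It called 6 rows changed, none of them a member. The calls over all rows moved with single replicates: 21 rows in RNA became 0 without control replicate 1 and 9 without targeted replicate 1, and 32 rows in footprints became 159 without targeted replicate 1, 85 without targeted replicate 2 and 53 without control replicate 1. No member was called in any of these fits. DESeq2 called 0 members in each, with 3, 0 and 0 at an unadjusted p under 0.05, and limma-voom called 0, with 3, 1 and 0. A fit with crossed replicate numbers as a block was added after seeing the data. It called DYN1 higher in RNA (log2 change 0.25, edgeR adjusted p 0.0281). It put 17 of 46 members at an unadjusted p under 0.05, where 388 of 5712 rows tested were. Across targeted and control cells the libraries share only a number. The log2 ratio of the 46 members in targeted cells ranked like that in control cells, with rho of 0.988. No call does not show that the levels were equal, and the sizes and errors of the changes follow.

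In RNA the 3 members with the smallest p above 0 were TEL1, with a log2 change of 0.25 ± 0.09 (SE), BPH1 with 0.21 ± 0.08 and TOM1 with 0.19 ± 0.08, at edgeR adjusted p of 0.853 to 0.973. Those below 0 were FAS2 with -0.08 ± 0.07, FAS1 with -0.02 ± 0.08 and GSC2 with -0.01 ± 0.10. In footprints those above 0 were DYN1 with 0.22 ± 0.09 (edgeR adjusted p 0.989), BPH1 with 0.18 ± 0.10 and MOT1 with 0.13 ± 0.07. Those below 0 were GSC2 with -0.14 ± 0.10, FAB1, the kinase that makes a vacuolar phosphoinositide, with -0.08 ± 0.09, and SEC7 with -0.06 ± 0.07. In the ratio TEL1 had -0.34 ± 0.17, IRA1 -0.16 ± 0.13 and TAO3, a scaffold of polarity signalling, -0.15 ± 0.11. Above 0 lay DCK1 with 0.04 ± 0.11, STT4 with 0.03 ± 0.10 and BLM10, an activator of the proteasome, with 0.03 ± 0.09, each at an adjusted p of 0.999986 by edgeR.

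The small changes in RNA and footprints leaned above 0, and their medians were near or below 0 without targeted replicate 2. The RNA change was above 0 for 42 of 46 members, with a median of 0.10, and the footprint change for 33 of 46, with a median of 0.05, where the medians of all rows were -0.000127 and -0.00132. The ratio change was below 0 for 40 of 46, with a median of -0.04. The medians were graded over length in the other rows too, with RNA changes of -0.05 under 600 bases and 0.07 from 3600 to under 5400 bases. In RNA, 45 of 46 members lay above the mean of the 4 libraries in targeted replicate 2, against 7 in targeted replicate 1, 9 in control replicate 1 and 5 in control replicate 2. In footprints of the same cultures these counts were 42, 14, 21 and 12. Without targeted replicate 2 the members' median RNA change relative to all rows was 0.00488, the median footprint change -0.02 and the median ratio change -0.01, against -0.05 with all libraries. Without targeted replicate 1 these were 0.20 in RNA, 0.11 in footprints and -0.11 in the ratio. Without a control replicate they were 0.07 to 0.14 in RNA, 0.03 to 0.06 in footprints and -0.07 to -0.05 in the ratio. Under library size as the only scaling, the median RNA change of all rows moved to -0.07, 31 members were above 0 in RNA and 24 in the ratio, while the members' median relative to all rows was 0.10 in RNA and -0.05 in the ratio, as with TMM. Both targeted libraries lay above both control libraries for 16 of 46 members in RNA and below them for 1, where 16.2 and 16.1% of all rows did so. In footprints these were 9 and 1, where 16.1 and 15.2% of all rows did so.

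**Figure D5:**
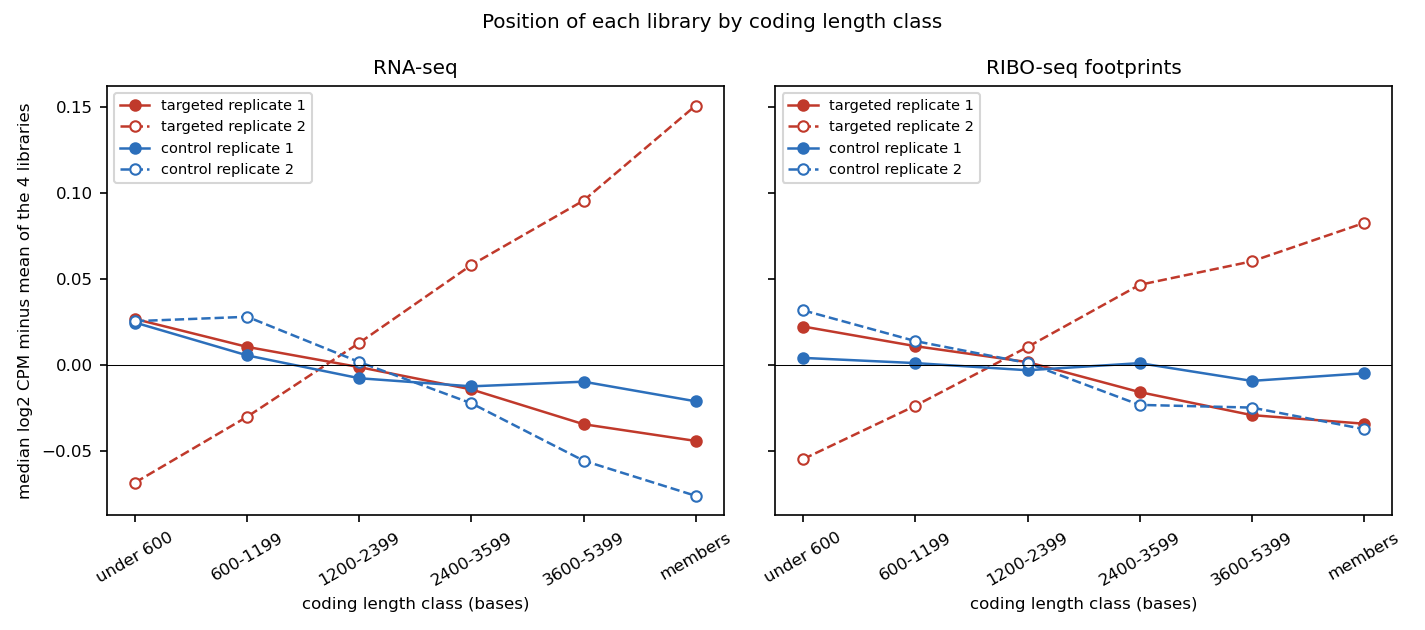
Median over rows of log2 CPM (TMM-scaled counts by library size) minus the mean of the 4 libraries of the assay (vertical), by coding length class (horizontal), with RNA-seq on the left and RIBO-seq on the right. Each line is 1 library, red for targeted and blue for control. Targeted replicate 2 climbs with length in both panels, to 0.151 in RNA and 0.082 in footprints for the very long coding sequences.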

How the data were processed

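RNA-seq and RIBO-seq libraries of BY4741 yeast were analysed from 1 deposited table with a row per coding sequence. Per the labels' protocols, footprints of 25 to 33 nt came from lysates digested with RNase I, and RNA for RNA-seq, depleted of rRNA, from part of each lysate. Per the submitters' processing notes, cutadapt and STAR were used with build R64. The sources used here name no counting tool, strand setting or treatment of shared reads. Deposited counts are whole numbers of reads. The deposited RPKM values divide counts by coding length and library total. The deposited ratio equals footprint RPKM plus 0.01 over RNA RPKM plus 0.01 in 100% of values (within 0.1 percent or rounding), and the ratios in the text were computed without the 0.01.

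The counts entered edgeR 4.0.16 (R 4.3.3; quasi-likelihood, TMM scaling, filterByExpr, Benjamini-Hochberg adjustment over all rows tested, two-sided, threshold 0.05). RNA and footprints between targeted and control cells were each tested in 4 libraries, the ratio's change as the interaction in all 8 libraries, and footprints over RNA within targeted and within control cells in 4 libraries each. SE is the log2 change over the square root of F. DESeq2 1.42.0, limma-voom (limma 3.58.1), other scalings and filters, and leaving out each replicate in turn were alternatives. The code was tested on simulated data.

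All 46 members matched a locus in the RefSeq R64 table with the same start and end. The members, gene lists, tests and naming rule were chosen with earlier results of these data known. Named genes were the 5 longest, the 3 rows on each side of the length limit, the 5 highest and 5 lowest in RNA and in ratio in control cells, per change the 3 with smallest p above and below 0, 3 paralog pairs and the first 2 by RNA of each role group. Genes named beyond these, POL2 among them, were chosen after their values were seen. Sequences and protein features were not analysed here.

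RNA and footprint libraries with the same number came from 1 lysate per the labels' protocols. Their deviations from the group means correlated with r of 0.308 in targeted and 0.327 in control cells, so the shared lysate pairs them. Across targeted and control cells libraries share only a number.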

Additional observations from a re-analysis of the deposited data

How the results depend on the processing

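No called log2 ratio of a member, taken relative to the median of all rows, changed sign under the alternatives run. With the culture as a replicate block, 44 members were lower in targeted and 44 in control cells, and 1 (FAS2) was higher in each. For the change between targeted and control cells the same-number block called no member in RNA, footprints or ratio. Same-numbered libraries of targeted and control cells deviated with r of -0.134 in RNA and -0.110 in footprints. A crossed pairing, added after seeing the data, called 71 rows in RNA, of which 1 was a member (DYN1), and 0 members in footprints. In RNA it put 17 members at an unadjusted p under 0.05, where 388 of 5712 rows tested were. By library size alone, 20 members were lower and 17 higher in targeted cells, 19 and 17 in control cells. Taking rows of at least 4500 bases gave 1 higher in control cells. Leaving out 1 culture (its RNA and footprint libraries) in a fit pooled over both kinds of cells, with the lone library of a group assumed to vary like the others, gave 43 to 44 lower in targeted and 39 to 40 in control cells. The same pooled fit with no culture left out, added after seeing the data, gave 44 lower in targeted and 43 in control cells.

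The members' median log2 ratio relative to all rows was -1.11 in targeted and -1.05 in control cells. It was -0.95 and -0.86 at 4500 bases or more, -1.39 and -1.34 at 7200 bases or more, and -1.003 and -0.96 from RPKM with a pseudocount of 1. In control cells it was -1.13 at 10 CPM or more in 2 libraries and -0.92 with the named rows kept. Leaving out a culture gave -1.15 to -0.999 in targeted and -1.07 to -1.01 in control cells. The rho of length and ratio was -0.534 in targeted and -0.515 in control cells, -0.4 and -0.376 with no filter on low counts, -0.754 and -0.749 at 10 CPM, and -0.497 and -0.5 in a fit without transposon rows. In targeted cells it was -0.533 by library size and -0.535 with the replicate block. Leaving out a culture gave -0.5 to -0.494 in targeted and -0.498 to -0.497 in control cells. The median RNA change ranged over 0.00488 to 0.199 and the footprint change over -0.0228 to 0.107 when a library was left out, lowest in both without targeted replicate 2, where the footprint change turned negative. The cause of these shifts was not tested. Of the members' single values under alternatives, 2548 kept both their sign and their call status, whatever the size of the shift. Another 142 changed sign without a call in either fit, 59 lost a call and 11 gained one. With 2 replicates a group no test for outlying samples could be made.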
